A study of Mus musculus with 2 samples.

Results

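The genes described here write, maintain, remove and read DNA methylation: the methyltransferases Dnmt1, Dnmt3a and Dnmt3b, the cofactor Uhrf1 and its paralog Uhrf2, the dioxygenases Tet1, Tet2 and Tet3, and the reader Mbd2. They were chosen by name, as every probe set whose only gene symbol in the platform annotation is 1 of these 9. The rule found 23 of 45037 probe sets and 9 of 18193 genes. Gene expression was measured on 2 Affymetrix arrays, 1 of mouse embryonic fibroblasts homozygous for Phc2 L307R (genotype Phc2 L307R/L307R) and 1 of wild-type fibroblasts. The labels give C57BL/6, embryonic day 12.5 and passage 1 for both cultures. Phc2 belongs to Polycomb repressive complex 1, and L307R is an amino acid change in the SAM domain, through which the protein polymerises. Each genotype is represented by a single culture.

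DNA methylation in mammals is put on cytosines that precede a guanine. Dnmt3a and Dnmt3b place new marks, while Dnmt1 copies existing marks onto the new strand after replication. Uhrf1 recognises the half-methylated DNA behind the replication fork and brings Dnmt1 to it. The Tet enzymes oxidise the methyl group as a first step of its removal, and Mbd2 binds methylated DNA and brings in the NuRD deacetylase complex. Polycomb silencing and DNA methylation mostly occupy different promoters of CpG-rich type in embryonic cells.

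Uhrf1 was the only member at least 1.2-fold lower in Phc2 L307R, at both of its probe sets, while Dnmt3a and Tet2 were at least 1.2-fold higher at their brightest probe set and disagreed between probe sets. Dnmt1 and Mbd2 were slightly lower at every probe set. Tet3 and most probe sets of Tet1 gave no signal above the floor or lay near it, as did Dnmt3b. With 1 array per genotype no value has a replicate, so no difference was tested and no p-value exists. Because each array holds the RNA of a whole culture, fewer cells with a transcript and less of it per cell cannot be told apart.

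Sequences upstream of the members' transcription starts are shown first for Uhrf1, because it had the lowest log2 ratio by brightest probe set. They are also shown for its paralog Uhrf2 and its partner Dnmt1, whose brightest probe sets had log2 ratios near 0. They come from RefSeq (GRCm38.p6) and cover the 250 bases before an annotated start, on the gene's own strand, 5′ to 3′. Capitals mark matches to TTTNNCGC, a core of the binding motif of the E2F factors of the cell cycle, searched on both strands. Uhrf1 has 2 annotated starts, with windows at chr17:56303087-56303336 and chr17:56304063-56304312 (plus strand). The single Uhrf2 window lies at chr19:30030263-30030512 (plus strand). For Dnmt1 only 30 bases around the match are shown, at chr9:20952823-20952852 (minus strand), 229 to 200 bases before the most downstream of its 3 annotated starts. Both other Dnmt1 starts lie upstream of this stretch, with windows at chr9:20959889-20960138 and chr9:20952980-20953229. The stretch is thus upstream only of the start named, and downstream of the others. Whether it falls in an exon of their transcripts was not tested.
Uhrf1, start 1: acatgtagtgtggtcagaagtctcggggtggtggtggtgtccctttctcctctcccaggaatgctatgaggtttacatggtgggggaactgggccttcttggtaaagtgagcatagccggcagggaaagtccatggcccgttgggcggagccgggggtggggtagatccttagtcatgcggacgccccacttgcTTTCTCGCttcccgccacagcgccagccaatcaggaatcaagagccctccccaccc
Uhrf1, start 2: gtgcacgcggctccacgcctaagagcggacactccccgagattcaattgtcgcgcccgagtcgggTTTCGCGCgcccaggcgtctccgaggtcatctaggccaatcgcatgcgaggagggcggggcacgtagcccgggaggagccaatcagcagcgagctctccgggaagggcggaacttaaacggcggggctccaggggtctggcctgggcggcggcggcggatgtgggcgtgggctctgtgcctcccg
Uhrf2, start 1: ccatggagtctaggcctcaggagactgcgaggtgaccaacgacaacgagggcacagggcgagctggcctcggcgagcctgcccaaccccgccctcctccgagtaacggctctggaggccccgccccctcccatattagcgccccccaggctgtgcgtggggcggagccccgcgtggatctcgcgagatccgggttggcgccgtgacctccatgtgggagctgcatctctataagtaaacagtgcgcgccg
Dnmt1, start 3: gtttccgcgcGCGCGAAAAAgccggggtct

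Promoter windows were used for 8 members, and none was used for Mbd2. Of these 8, Uhrf1 and Dnmt1 held the motif TTTNNCGC, and both held its stricter form TTTCGCGC. The core was present for 4.94% of 27025 genes and the strict form for 0.300%. These shares are over windows of every CpG content. No share was taken over windows as CpG-rich as those holding the strict form, whose letters include CpG. A gene with several starts counted if any of its windows held the motif. In Uhrf1 the strict form lay 185 bases before the second start, and a further core match, TTTCTCGC, lay 56 bases before the first. In Dnmt1 the strict form lay on the opposite strand and overlapped a further core match. Each strict match lay downstream of another annotated start of the same gene. The strict matches are thus upstream only of the second Uhrf1 start and the third Dnmt1 start. The Dnmt1 match thus accompanies a gene whose log2 ratio was near 0, and the Uhrf1 match a gene that was lower. None of the other 6 members with a window held the core there, which says only that those letters are not there. The motifs GGGCGG and CCAAT were searched as well. All 8 members with a window held GGGCGG, beside 35.4% of genes. Dnmt1, Uhrf1 and Tet3 held CCAAT, beside 37.5% of genes. CpG dinucleotides were frequent in most windows. They numbered 51 before the start of Tet2, 30 before the second start of Uhrf1, 23 before that of Uhrf2, 38 and 40 before the first pair of Dnmt3a starts and 26 before the third Dnmt1 start, with the same limit, against a median of 6 over all 32851 windows. The window of the first Dnmt1 start held 2.

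The arrays were alike in brightness, with medians of 94.3 in Phc2 L307R and 94.8 in wild type. The higher of these, 94.8, served as a floor. Dimmer signals were set to this value, which turns a fold into a bound. A probe set counted as measured if either array exceeded the floor. Of the 23 probe sets, 20 were measured and 16 of them exceeded the floor on both arrays. The only error available is technical. Measured probe sets of 1 gene had an SD of 0.32 in their log2 ratios, over 5460 genes. All 14 fibroblast markers were measured on these arrays, with Col1a1 at a signal of 21724 in Phc2 L307R and 16448 in wild type. Of 7 skeletal muscle markers, 6 were measured as well. Phc2 had signals of 4079 in Phc2 L307R and 3184 in wild type at its brighter probe set, and 3103 and 3145, in the same order, at the other. A missense change need not alter the transcript, so these values do not check the labels.

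**Figure D1:**
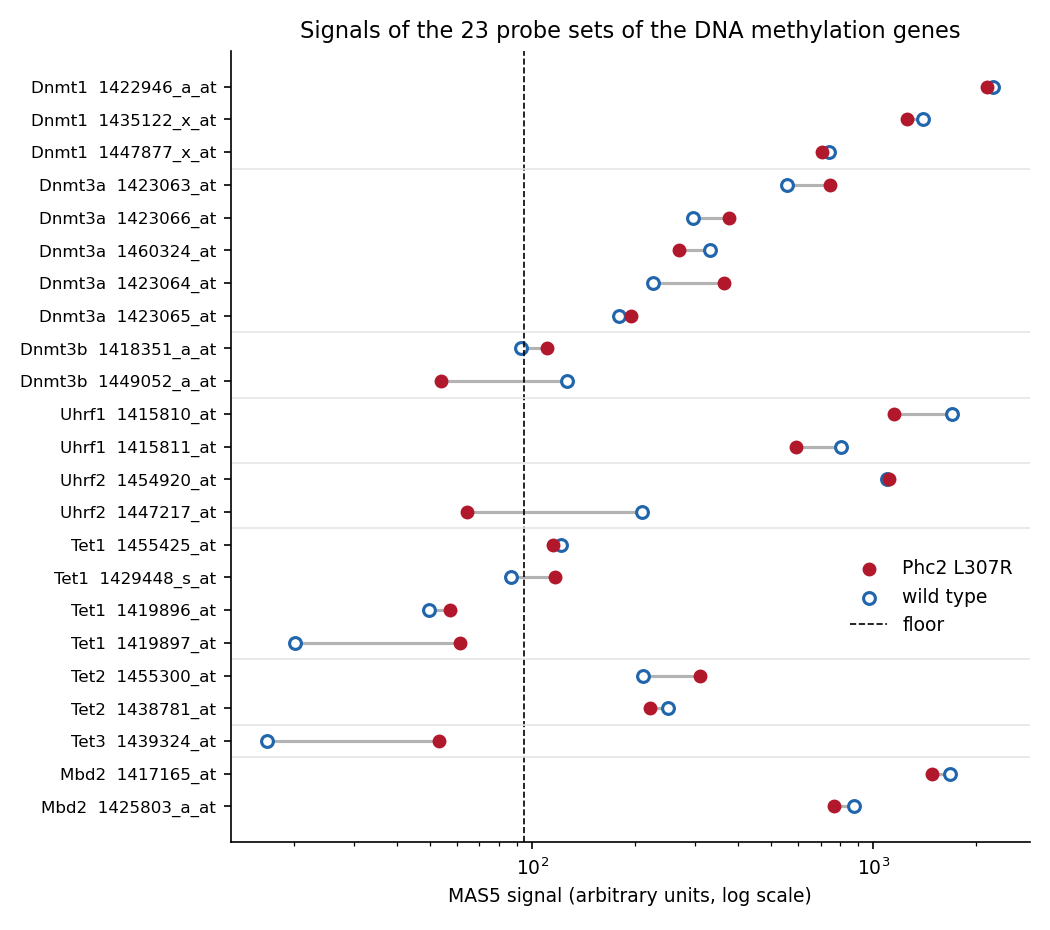
Signals of all 23 probe sets of the 9 genes on a log axis, 1 row per probe set, with Phc2 L307R as filled red points and wild type as open blue points; the dashed line is the floor at 94.8. Both Uhrf1 rows have the red point to the left, the Dnmt1 points nearly coincide, and the rows of Dnmt3b, Tet1 and Tet3 lie around or below the floor.

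Among the maintenance genes, Uhrf1 reached 1145 in Phc2 L307R and 1698 in wild type at probe set 1415810_at. The log2 ratio, Phc2 L307R over wild type, was -0.57, or 1.48-fold lower. At 1415811_at the signals were 591.5 in Phc2 L307R and 804.4 in wild type, a log2 ratio of -0.44 or 1.36-fold lower. The probe sets thus gave the same direction and differed by 0.13 on the log2 scale. Both carry the same sequence accession in the annotation, so they are no independent measurements of the gene. Uhrf1 was lower than the wild-type culture by more than the SD between probe sets, 0.32, at both of them. It was also the only member at least 1.2-fold lower at every measured probe set. That call was met by 3.48% of the 5460 genes with at least 2 measured probe sets, some of which have more than 2. The 1.2-fold threshold was set after the members' values were seen, so this share lends the Uhrf1 value no support. By its brightest probe set it stood at percentile 3.54 of the log2 ratios of 11408 measured genes, and 8.11% of these genes differed at least as much in either direction. Among the 1000 probe sets of nearest mean signal, the central 90% of log2 ratios ran from -0.60 to 0.45 for 1415810_at and from -0.51 to 0.50 for 1415811_at. Each Uhrf1 value therefore lay inside the spread of the arrays at its own brightness, close to the lower end.

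Dnmt1, the maintenance methyltransferase, differed little between the genotypes. Its signals were 2152 in Phc2 L307R and 2247 in wild type at 1422946_a_at, a log2 ratio of -0.06. At 1435122_x_at they were 1256 in Phc2 L307R and 1393 in wild type (-0.15), and at 1447877_x_at 705.8 in Phc2 L307R and 741.1 in wild type (-0.07). All 3 were lower in Phc2 L307R, by less than the SD between probe sets of 1 gene. The suffix _x_at marks probes that can bind several transcripts, so the last 2 are less specific than the first. The Dnmt1 log2 ratio was 1 of the smaller ones on the arrays: 82.7% of measured genes differed at least as much.

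Uhrf2 is a paralog of Uhrf1 that does not replace it in maintenance. At its brightest probe set, 1454920_at, the signal was 1112 in Phc2 L307R and 1098 in wild type, a log2 ratio of 0.02. At 1447217_at, a dim probe set designed on another sequence, the signal was 64.5 in Phc2 L307R, below the floor, and 209.0 in wild type. That made it at least 2.20-fold lower, a log2 ratio of -1.14 or below. No other measured probe set of a member reached 2-fold with the floor applied, though the Dnmt3b value at 1449052_a_at is a bound that does not limit its size. The log2 ratios at the probe sets of Uhrf2 were at least 1.16 apart, the widest range of any member, so the gene has no single value on these arrays. The bright probe set matched neither the size nor the direction seen in Uhrf1.

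Of the methyltransferases that place new marks, Dnmt3a was above the floor at all 5 of its probe sets. At the brightest, 1423063_at, the signal was 746.6 in Phc2 L307R and 557.9 in wild type, a log2 ratio of 0.42 or 1.34-fold higher. At 1423064_at it was 365.0 in Phc2 L307R and 225.7 in wild type, 1.62-fold higher and the largest positive log2 ratio among the members' measured probe sets. At 1423066_at it was 377.8 in Phc2 L307R and 294.9 in wild type, a log2 ratio of 0.36. At 1423065_at the values were 194.2 in Phc2 L307R and 179.4 in wild type, at 0.11. At 1460324_at the direction was opposite, with 268.7 in Phc2 L307R and 330.7 in wild type, at -0.30. Dnmt3a was thus higher at 4 of 5 probe sets, with a mean log2 ratio of 0.26 ± 0.37 (SD between the 5 probe sets, not between cultures). All 5 carry the same sequence accession in the annotation, and the source of their disagreement was not tested. Only 1423064_at lay outside the central 90% of its 1000 nearest probe sets, which ran from -0.60 to 0.59.

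Dnmt3b, the methyltransferase of early embryonic cells, lay at the floor. At 1418351_a_at its signal was 110.1 in Phc2 L307R and 92.4 in wild type, at least 1.16-fold higher. At 1449052_a_at it was 53.9 in Phc2 L307R and 126.0 in wild type, at least 1.33-fold lower. The probe sets pointed in opposite directions and neither was above the floor on both arrays, so no direction can be given for the gene.

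**Figure D2:**
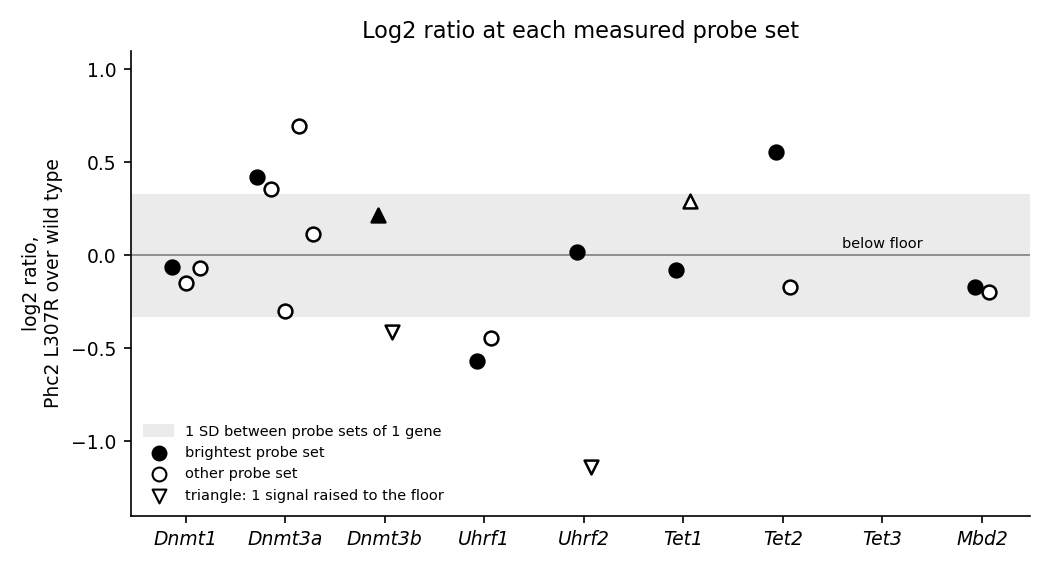
Log2 ratio, Phc2 L307R over wild type, at each of the 20 measured probe sets, grouped by gene; filled points are the brightest probe set of a gene, open points the others, triangles bounds in which 1 signal was raised to the floor, and the grey band is 1 SD (0.32) between probe sets of 1 gene. Uhrf1 has both points below the band, Dnmt1 and Mbd2 have all points within it below 0, and the points of Dnmt3a, Dnmt3b, Uhrf2, Tet1 and Tet2 fall on both sides of 0.

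Among the erasers, Tet2 had the largest log2 ratio of any member at its brightest probe set. At 1455300_at its signal was 309.9 in Phc2 L307R and 211.2 in wild type, a log2 ratio of 0.55 or 1.47-fold higher. At 1438781_at it was 221.4 in Phc2 L307R and 249.1 in wild type, a log2 ratio of -0.17. The difference between these probe sets, 0.72, was larger than either value, and their mean was 0.19. Both values lay within the central 90% of log2 ratios of probe sets of like brightness.

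Tet1, which is best known from embryonic stem cells, was dim on both arrays. At 1455425_at the signal was 114.7 in Phc2 L307R and 121.0 in wild type, a log2 ratio of -0.08. At 1429448_s_at, whose probes can bind transcripts of other genes, it was 116.2 in Phc2 L307R and 86.8 in wild type, at least 1.23-fold higher. The remaining pair of Tet1 probe sets did not reach the floor on either array, with 57.4 and 61.6 in Phc2 L307R and 49.9 and 20.1 in wild type. Tet3 has 1 probe set, 1439324_at, also below the floor, at 53.3 in Phc2 L307R and 16.7 in wild type, so it has no ratio. No presence call stands behind any signal, and a signal below the floor does not show that the transcript is absent. All 7 markers of pluripotent or germ cells, among them Pou5f1 and Nanog, also lay below the floor on both arrays.

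Mbd2, the reader, was slightly lower at both probe sets. Its signal was 1489 in Phc2 L307R and 1676 in wild type at 1417165_at, a log2 ratio of -0.17. At 1425803_a_at it was 764.7 in Phc2 L307R and 877.2 in wild type, a log2 ratio of -0.20. The probe sets were designed on different sequences and their log2 ratios were only 0.03 apart, closer than those of any other member. The difference itself was smaller than the SD between probe sets of 1 gene, and 55.9% of measured genes differed at least as much.

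Ordered by the log2 ratio of their brightest probe set, the 8 measured members ran from Tet2 (0.55) through Dnmt3a (0.42), Dnmt3b (at least 0.22), Uhrf2 (0.02), Dnmt1 (-0.06), Tet1 (-0.08) and Mbd2 (-0.17) to Uhrf1 (-0.57). The step from Mbd2 to Uhrf1, 0.40, was the largest between neighbours. The SD of 0.32 applies to single log2 ratios within a gene and does not measure the error of a step between genes. The members were 4 higher and 4 lower, with a median log2 ratio of -0.02, beside a median of 0.06 and a share of 40.9% lower over all measured genes. No member reached 2-fold at its brightest probe set, while 66 of all measured genes were at least 2-fold higher and 61 at least 2-fold lower, together 1.11% (47 higher and 75 lower with log2 ratios centred on the median of measured genes). At 1.2-fold, 1 member was lower and 2 were higher, and over all measured genes 14.3% were lower and 23.1% higher. The 1.2-fold threshold was set after the members' values were seen. Members lower at every measured probe set were Uhrf1, Dnmt1 and Mbd2, 3 of the 8 with at least 2 such probe sets, beside 19.9% of all such genes. With 8 genes, these counts set the list apart from other genes in no direction.

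**Figure D3:**
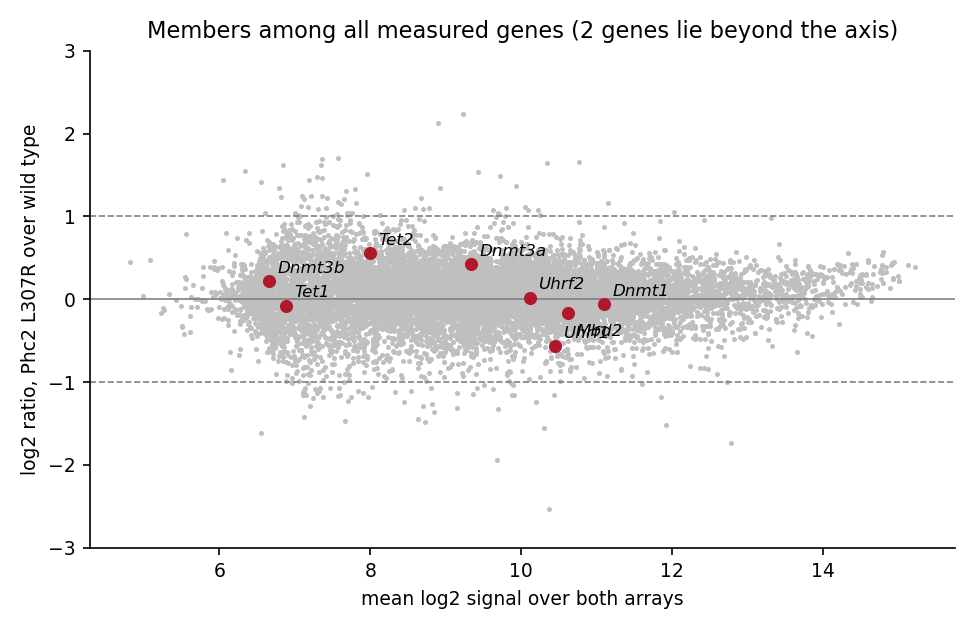
Log2 ratio, Phc2 L307R over wild type, against the mean log2 signal over both arrays for 11408 measured genes (grey) and the 8 measured members (red); dashed lines mark 2-fold, and 2 genes lie beyond the axis. All 8 members lie between the lines, Uhrf1 nearest the lower edge of the cloud at its brightness.

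Uhrf1 was also set beside the genes of S phase, the phase in which it works. Of 28 measured S phase genes other than the members, 26 were lower in Phc2 L307R by brightest probe set, beside 40.9% of all measured genes. The measured probe sets of Mcm2, Mcm3, Ccne1, Rrm1, Slbp, E2f1 and Fen1 fell on both sides of 0, reaching 1.16 for Fen1. With the measured probe sets of each gene averaged, the S phase median was -0.29. By brightest probe set the S phase median log2 ratio was -0.25, and 14 of the 28 were at least 1.2-fold lower, beside 14.3% of all measured genes. Only Ccne2 (cyclin E2, -0.91), Pola1 (catalytic subunit of DNA polymerase alpha, -0.60) and Rfc4 (clamp loader, -0.57) were lower than Uhrf1. Ccne2 and Pola1 each rest on 1 measured probe set. The genes nearest to Uhrf1 in log2 ratio, the single number that 2 arrays give as a pattern, were Rfc4, Pola1 and the replicative helicase subunit Mcm5 (-0.50). Uhrf1 lay 0.32 below the S phase median and Dnmt1 0.19 above it, with 25 of the 28 genes lower than Dnmt1. Genes of G2 and M phase were lower as well by brightest probe set, 22 of 24 with a median of -0.22. The lowest were Nuf2 (-1.08), Kif2c (-0.72), Birc5 (-0.54) and Bub1 (-0.52), which act in chromosome segregation. In this list the measured probe sets of Top2a, Cenpa, Cenpf, Cdc20, Tpx2 and Hmmr fell on both sides of 0. Nuf2 and Birc5 have 1 probe set each, and the 3 measured probe sets of Kif2c ran from -0.72 to -0.04. Uhrf1 was thus among the lower genes of a list that was lower on the same array, while Dnmt1 was among its higher ones. The part of cell cycle activity in the Uhrf1 value was not tested. Of 23 S phase genes with a promoter window, 5 held TTTNNCGC, beside 4.94% of all genes with a window. Of the partners of the writers and of Uhrf1 4 of 15 held it, and of G2 and M phase genes 1 of 22. Whether the motif goes with the log2 ratios was not tested.

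The partners of the writers and of Uhrf1 were 7 higher and 7 lower among 14 measured of 16 with a probe set, with a median log2 ratio of -0.02. The lowest was Hells, a chromatin remodeller needed for methylation of repeats, with a signal of 1260 in Phc2 L307R and 1918 in wild type, 1.52-fold lower. Its other probe sets gave log2 ratios of -0.37 and -0.73 or below, so Hells was lower at all 3. Smchd1, which acts in silencing of the inactive X, was at -0.43. Pclaf, a PCNA-associated factor, was at -0.35, and Cdca7, the partner of Hells, was at -0.33. Lig1, the replicative DNA ligase and a binding partner of Uhrf1, went the other way: its signal was 1307 in Phc2 L307R and 909.3 in wild type, 1.44-fold higher. Usp7, the deubiquitinase that stabilises Uhrf1, was at 0.13 at its brightest probe set, the highest of 7 that ran down to -0.22. Dnmt3l and Dppa3, regulators of methylation in germ cells and oocytes, lay below the floor on both arrays.

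Methyl-CpG readers other than Mbd2 were mostly higher, 6 of 7 measured, with a median of 0.18 (0.02 when the measured probe sets of each gene were averaged). Over all measured genes 6738 of 11408 were higher, with a median of 0.06. Zbtb38 was at 0.37, Mbd4, a glycosylase that repairs deaminated methylcytosine, at 0.25 and Mbd1 at 0.22, while Zbtb33 (Kaiso) was lower at -0.38. Zbtb33 gave -0.46 at its other probe set, whereas the other measured probe set of Zbtb38 gave -0.67. Of the NuRD subunits that work with Mbd2, 9 of 11 were higher, with a median of 0.11. Mta2 was at 0.60 and the remodeller Chd3 at 0.49, each on 1 probe set. Gatad2a was at 0.29 and Gatad2b at -0.14 at their brightest probe sets, but the measured probe sets of each gene fell on both sides of 0, from -0.39 to 0.29 for Gatad2a and from -0.14 to 0.44 for Gatad2b.

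The steps of demethylation beside the Tet enzymes were 10 higher and 5 lower, with a median of 0.10. Over all measured genes 6738 were higher and 4664 lower, with a median of 0.06. The uracil glycosylase Ung was lowest at -0.54, with signals of 280.2 in Phc2 L307R and 407.0 in wild type. Apobec1 (0.36), Idh1, which supplies the cosubstrate of the Tet enzymes (0.30), and Ogt, a partner of the Tet enzymes (0.29), were the largest on the other side. The measured probe sets of Idh1 ran from -0.26 to 0.30 and those of Ogt from -0.06 to 0.32. In the supply of methyl groups 4 of 8 measured genes were higher and 4 lower, with a median of -0.04. There Mtr, the methionine synthase, was at -0.31, Shmt1 at -0.26, Mthfd1 at 0.20 and Shmt2 at -0.12, each at its brightest probe set. Their probe sets disagreed: those of Mthfd1 ran from -1.96 to 0.20, those of Shmt1 from -1.26 to -0.03 and those of Mtr from -0.31 to 0.05.

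**Figure D4:**
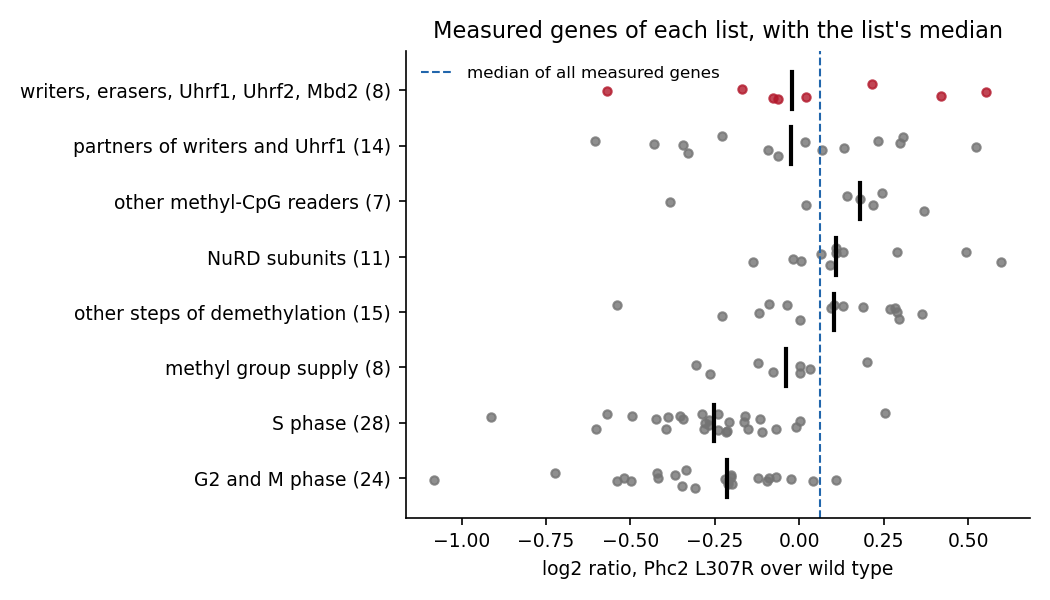
Log2 ratio, Phc2 L307R over wild type, of every measured gene in the members and 7 related lists (numbers of measured genes in brackets, points spread vertically only for legibility); black bars are list medians and the dashed line is the median of all measured genes, 0.06. The S phase and G2 and M phase points lie mostly left of 0 with medians of -0.25 and -0.22, and the members scatter around -0.02.

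Germline and pluripotency genes whose promoters are known to carry DNA methylation in somatic cells gave little signal in either culture. Of 19 with a probe set, 17 lay below the floor on both arrays, Dazl, Ddx4 and Sycp3 among them. The other two were at the floor: Sohlh2 had 75.5 in Phc2 L307R and 122.5 in wild type, at least 1.29-fold lower, and Asz1 had 104.8 in Phc2 L307R and 93.9 in wild type, at least 1.11-fold higher. No direction common to these genes was measured.

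Markers of some other cell types differed between the cultures. Each summed signal covers all genes of a list with a probe set, those below the floor included. Over all measured genes, 6738 of 11408 were higher in Phc2 L307R. Of 10 chondrocyte markers, all measured, 9 were higher in Phc2 L307R. Sox9 was lower at both measured probe sets (-0.29 and -0.08). The summed signal of the 10 was 9563 in Phc2 L307R and 6197 in wild type, of which Col2a1 gave 5685 and 4037, in the same order. Macrophage markers were measured for 5 of 9 genes, with 4 higher and a summed signal of 1104 in Phc2 L307R and 741.0 in wild type. The defining C1qa and Ptprc lay below the floor on both arrays. Of 5 measured osteoblast markers 4 were higher and Omd was lower (-0.33). Their summed signal was 1774 in Phc2 L307R and 776.0 in wild type, of which Ibsp gave 997.6 and 228.8, in the same order. Epithelial markers were 1 higher and 2 lower among 3 measured, with 940.9 in Phc2 L307R and 1205 in wild type. Endothelial markers (2 higher and 1 lower) and neural markers (2 higher and 2 lower) were mixed. Skeletal muscle markers were 4 higher and 2 lower among 6 measured, and 3 of the 4 were at least 1.2-fold higher. The lower ones, Tnnt1 (-0.05) and Mylpf (-0.04), were near 0. The summed signal of the muscle list was 18510 in Phc2 L307R and 15350.5 in wild type. Of this Acta1 gave 9652 and 6781, in the same order. Fibroblast markers themselves were higher for 11 of 14, with a summed signal of 185466 in Phc2 L307R and 142040 in wild type. The part of these markers in the differences of Uhrf1, Dnmt3a and Tet2 was not tested.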

How the data were processed

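The authors deposited intensity values on a linear scale, for 45101 probe sets on each of 2 arrays. Affymetrix Expression Console and MAS5 were used, per the submitters' processing notes, which give no versions. The values show that each array's mean, with 2% trimmed at each end, was 500. No detection calls or scanner files were used here.

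The 64 control probe sets were left out. Symbols came from the platform annotation and were updated through RefSeq (GRCm38.p6), where 34741 of 34945 probe sets with 1 symbol matched; 932 with several symbols and 9160 with none listed named no gene. For each gene the probe set with the highest mean log2 signal stood for it. Differences are log2 ratios, Phc2 L307R over wild type. Genes were counted by size at 2-fold and 1.2-fold, with no test. The members and gene lists were chosen with earlier results of these data known. The text names every member and the 4 measured genes of largest absolute log2 ratio in each list. It also names any reader, partner or demethylation gene at 1.5-fold, and the 3 S phase genes nearest Uhrf1. Cdca7, Usp7, Dnmt3l, Dppa3, Dazl, Ddx4, Sycp3 and the marker genes were named after their values were seen. So were the S, G2 and M phase genes named only for disagreeing probe sets. Calculations were tested on simulated arrays. The planted differences were all larger than 2-fold and in genes well above the floor. That check does not cover differences as small as the members' or signals near the floor. Python 3.11.15, numpy 2.4.6, pandas 2.3.3 and statsmodels 0.14.6 were used.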

Additional observations from a re-analysis of the deposited data

How the results depend on the processing

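No paired analysis was possible because each genotype has 1 array. Each member's log2 ratio was recomputed under 9 alternatives: quantile normalization, loess, centring, a floor at the 40th percentile or at the 60th, none, the floor as a pseudocount, the mean over measured probe sets, and no _x_at or _s_at probe sets. Uhrf1 ran from -0.63 to -0.51, Dnmt1 from -0.12 to -0.06, Mbd2 from -0.23 to -0.16 and Dnmt3a from 0.26 to 0.42 under all 9. With the mean over measured probe sets, Tet2 was at 0.19 and Uhrf2 at -0.56, because their probe sets disagree. Uhrf2 was then lower than Uhrf1, at -0.51, so Uhrf1 was the lowest member only by brightest probe set. Under the same setting Dnmt3b turned to -0.10 and Tet1 to 0.11. Centring turned Uhrf2 to -0.04. Dnmt3b and Tet1 gave no value with the floor at the 60th percentile, where 6 members were measured. The members' median was -0.10 to 0.02, and 3 to 5 of them were lower.

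The counts of all genes at 2-fold, 66 higher and 61 lower, depended on the floor. They were 127 higher with the floor at the 40th percentile, 27 higher and 35 lower at the 60th, 1326 higher and 1397 lower with no floor, and 26 higher and 22 lower with the pseudocount. At the smallest alternative threshold, between 1.2-fold and 1.5-fold, they were 1935 higher and 1273 lower, at 1.5-fold 479 and 371, and at 3-fold 8 and 6. The S phase median stayed between -0.32 and -0.22 under these 9, while the medians of the partners (-0.09 to 0.04) and of methyl group supply (-0.10 to 0.00) had either sign. Signal near the floor limits Dnmt3b, Tet1 and Tet3.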
